A study of Mus musculus with 13 samples.

Results

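The 9 genes described here were followed across liver RNA of mice with and without ligation of the common bile duct (BDL), a surgical model of cholestasis. They were taken by symbol as genes of glucose production (Pck1, G6pc, Fbp1), of glycolysis and lactate formation (Hk2, Pklr, Pkm, Ldha) and of glucose transport (Slc2a1, Slc2a2), and were matched to the Entrez gene identifiers of the count tables. All 9 were found among up to 23725 genes per table, and all 9 passed the filter on low counts in each comparison. Of all genes, 12866 passed that filter in all 3 comparisons.

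RNA was sequenced from livers of 13 C57 mice aged 3 months. The no BDL group held 5 untreated mice. The miR-Ctrl BDL group held 4 mice that underwent BDL and received a control oligonucleotide, and the anti-miR-873-5p BDL group held 4 mice that underwent BDL and received a hairpin inhibitor of miR-873-5p. The mice were male and wild type for Gnmt, 60 µg of oligonucleotide was injected into the tail vein on days 3 and 5 after surgery, and livers were taken on day 7. The no BDL mice are labelled non treated, and the sources used here do not say whether they had sham surgery. The effects of surgery, of bile stasis and of the injection cannot be told apart in the comparisons with no BDL. Total counts ranged from 12185333 to 19689037 per mouse. The deposited table that sets the BDL groups against each other held 3 mice of each, without miR-Ctrl BDL mouse 3 and anti-miR-873-5p BDL mouse 2.

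The liver releases glucose between meals and stores or burns it after them. Pck1 makes phosphoenolpyruvate, Fbp1 removes a phosphate from fructose bisphosphate, and G6pc frees glucose from its phosphate in the last step, after which glucose leaves hepatocytes largely through Slc2a2 (GLUT2). In the other direction hepatocytes rely on liver pyruvate kinase (Pklr), whereas most other cells, proliferating cells among them, use Pkm and Slc2a1 (GLUT1). Hk2 is the hexokinase of muscle and of dividing cells. Whole liver was sequenced, so a lower value can come from fewer cells of a type or from less RNA per cell, and these cannot be told apart.

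Alb was the most abundant marker of the hepatocyte list in every mouse. The summed normalised count (reads scaled to library size as CPM, after trimmed-mean normalisation) of 7 hepatocyte markers was lower after BDL. It ran from 78647 to 91313 in no BDL mice and from 36741 to 62411 in miR-Ctrl BDL mice. By the test used for all genes, 5 of the 7 fell, and the 7 had a median log2 fold change of −0.80. Scaling by library size alone put the middle gene of this comparison at 0.79, in place of −0.01. That shift is near the size of the fall in these markers, so the fall may not hold under that scaling. The sum was not computed with library size alone. Markers of several other cell types rose in the same libraries. All 6 cholangiocyte markers rose in miR-Ctrl BDL, with a summed level of 38.0 to 111 in no BDL and 397 to 1460 in miR-Ctrl BDL and Spp1 as the most abundant gene. All 6 monocyte and neutrophil markers, 5 of 7 macrophage markers, 5 of 7 stellate cell markers and all 3 proliferation markers rose as well. With anti-miR-873-5p BDL set against the same mice, 2 of 7 hepatocyte markers fell, and 6 of 6 cholangiocyte, 5 of 6 monocyte and neutrophil, 1 of 7 macrophage, 4 of 7 stellate cell and 2 of 2 tested proliferation markers rose. By the same test, 35.7% of all genes passed with miR-Ctrl BDL and 21.5% with the inhibitor, each set against no BDL. With the inhibitor, the share of hepatocyte markers that passed, 28.6%, was near that of all genes. The share of macrophage markers, 14.3%, was under it. The part of these marker shifts in the results below was not tested.

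Mice stood apart from their groups. MiR-Ctrl BDL mouse 3 and anti-miR-873-5p BDL mouse 2, which the deposited table of BDL against BDL leaves out, had the highest Pck1 and Pdk4 of all BDL mice, and their cholangiocyte sums, 397 and 194, were the lowest of their groups. Without BDL, mouse 5 had the highest macrophage sum (518, against 86.1 to 246 in the other 4), the highest Pkm and the lowest Slc2a2. Several results are therefore also given without these mice.

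The first comparison asked how the 9 genes differ between miR-Ctrl BDL and no BDL livers. Of them, Hk2, Pkm and Slc2a1 rose, G6pc, Pklr and Fbp1 fell (Fbp1 only with trimmed-mean or size-factor scaling, its sign turning with library size alone), and Slc2a2, Pck1 and Ldha did not pass the test. A gene was called where the quasi-likelihood test of edgeR, adjusted over all genes, gave a value under 0.05, and 35.7% of 13072 genes were called in this comparison, 19.1% higher and 16.6% lower. With both no BDL mouse 5 and miR-Ctrl BDL mouse 3 left out, 8 of the 9 were called, 3 higher and 5 lower, in a fit that called 45.4% of all genes.

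The libraries differed in composition, and some directions differed with the scaling. The 20 most abundant genes took 32.4% to 48.2% of the reads in no BDL mice and 24.8% to 28.7% in miR-Ctrl BDL mice. With library size alone, the median over all genes of the log2 fold change moved from −0.01 to 0.79 in miR-Ctrl BDL and from −0.01 to 0.82 with the inhibitor, both against no BDL. Of the genes called, 97.1% and 98.7% were then higher, in place of 53.4% and 60.8%. Hk2, Pkm and Slc2a1 were higher and G6pc and Pklr lower under each of the scalings in both comparisons.

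**Figure D1:**
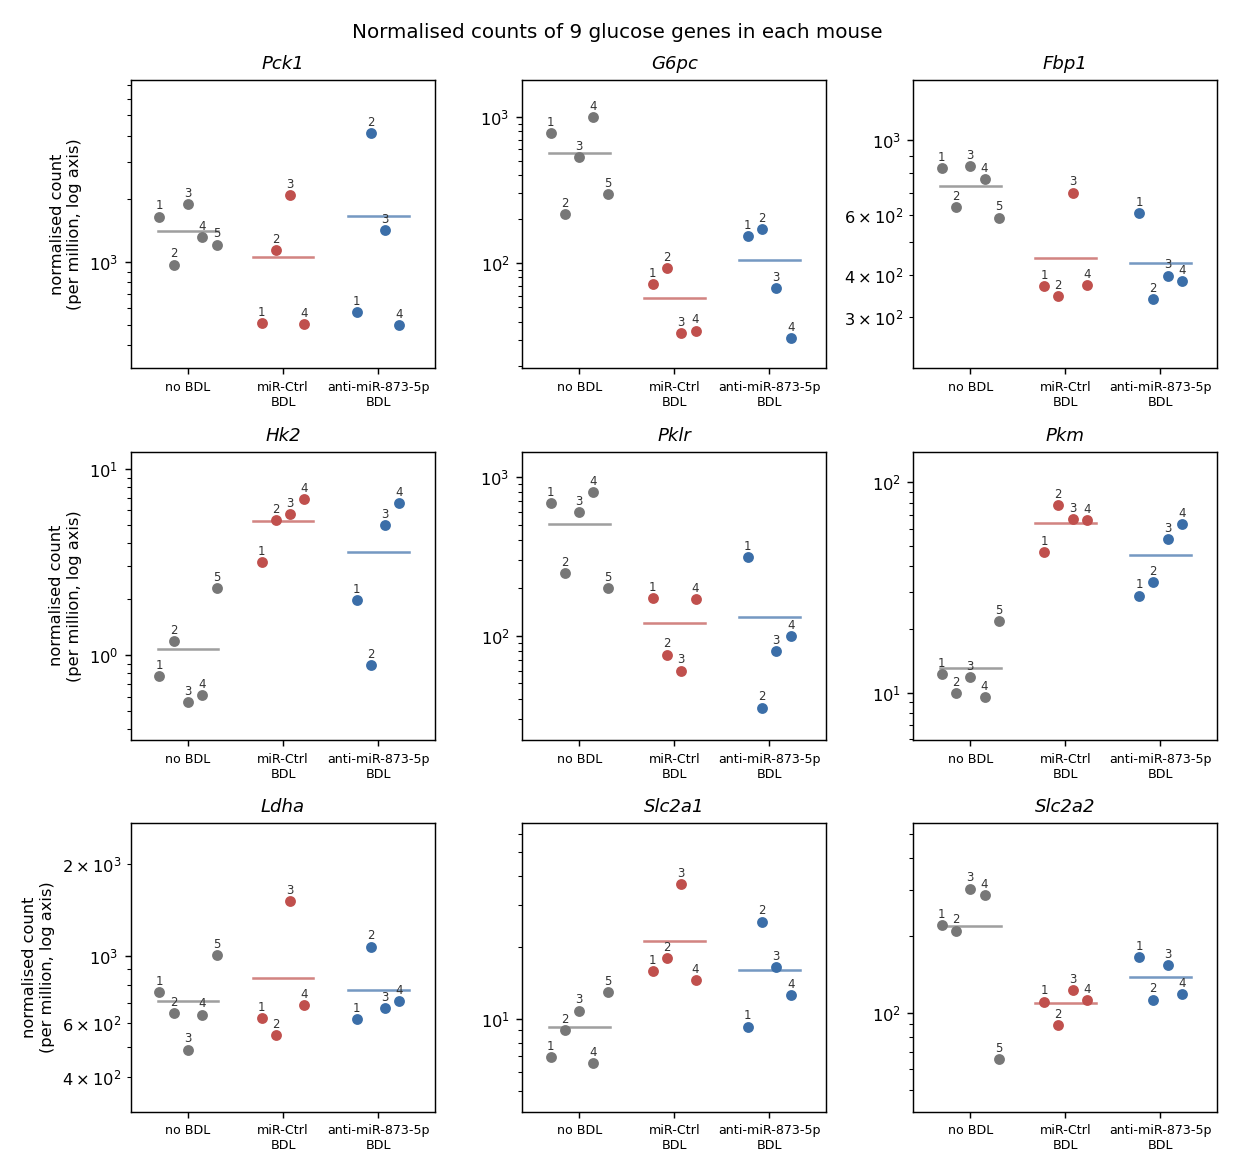
Normalised counts of the 9 genes (y axis, CPM after trimmed-mean scaling, log axis) in each mouse, by group on the x axis. Points are mice with their numbers and lines are group means, with no BDL and miR-Ctrl BDL from one table and anti-miR-873-5p BDL from another that was scaled separately. All 8 BDL mice lie below the 5 no BDL mice for G6pc and above them for Pkm.

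Among the genes of glucose production, G6pc (chr11:101367716-101377903, GRCm38) had the largest fall. Its normalised counts were 777, 217, 532, 997 and 298 in no BDL mice 1 to 5, and 72.1, 92.2, 33.4 and 34.7 in miR-Ctrl BDL mice 1 to 4. Every BDL value was under every no BDL value, as it was for 14.8% of all genes. The means were 564 ± 326 (SD, n = 5) and 58.1 ± 28.9 (SD, n = 4), a 9.71-fold fall (log2 fold change −3.28, SE 0.54, adjusted p = 0.00158). Given the inhibitor, BDL mice had 154, 171, 67.6 and 30.8, again under all no BDL mice of their table (221 to 1017). There the fall was 5.43-fold (log2 fold change −2.44, SE 0.60, adjusted p = 0.0203), and the call was lost without anti-miR-873-5p BDL mouse 3 (adjusted p = 0.0669) and with mouse number as a block (adjusted p = 0.0654). Downward separation held for 8.23% of all genes there. In this second comparison, 21.5% of 13130 genes were called, 13.1% higher and 8.44% lower.

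Fbp1 (chr13:62864753-62888298) fell less. It stood at 830.0, 635, 840.4, 769 and 591 in no BDL and at 371, 345, 701 and 372 in miR-Ctrl BDL. Of the miR-Ctrl mice, 3 lay far below the no BDL mice, and mouse 3 lay among them. The log2 fold change was −0.71 (SE 0.24, adjusted p = 0.0397) and turned to 0.04 with library size alone. The call was lost when any of 7 of the 9 mice was left out and became stronger without miR-Ctrl BDL mouse 3 and no BDL mouse 5 (log2 fold change −1.10, adjusted p = 0.000256). For anti-miR-873-5p BDL, with 610.5, 339, 398 and 384, the log2 fold change was −0.79 (SE 0.22, adjusted p = 0.0295), 0.02 with library size alone, and the call was lost when any of 5 of the 9 mice was left out.

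Pck1 (chr2:173153073-173159274) did not pass the test in either BDL group. Its normalised counts were 1644, 971, 1892, 1308 and 1209 in no BDL and 510.5, 1137, 2077 and 503.6 in miR-Ctrl BDL. Mice given the inhibitor spread most widely, at 576, 4101, 1417 and 499. The highest value of each BDL group came from the mouse missing from the table of the BDL groups, and the other BDL mice lay within or under the no BDL range. The log2 fold changes were −0.41 (SE 0.42, adjusted p = 0.483; 0.31 with library size alone) and 0.20 (SE 0.57, adjusted p = 0.828). The second ranged from −0.85 to 0.91 over the alternatives other than leaving out single mice. Without miR-Ctrl BDL mouse 3 the first was −0.98 with an adjusted p of 0.0355, and without anti-miR-873-5p BDL mouse 2 the second was −0.80 with an adjusted p of 0.132.

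The Pck1 promoter is known for a cyclic AMP response element that answers to glucagon. Its window in RefSeq (GRCm38.p6, 250 bases before to 50 after the start) holds TTACGTCA, read on both strands in 0.499% of 32851 windows. The related palindrome TGACGTCA, in 1.79% of windows, was found in the Ldha window alone among the 9 genes. Both are shown with the motif in capitals, beside the Slc2a1 window, whose capitals mark a letter group read below, since these are the genes in which the mice that stood apart were highest.
Pck1, chr2:173152969-173152998, plus strand: aggcctgccccTTACGTCAgaggcgagcct
Ldha, chr7:46845781-46845810, plus strand: ggctcccactcTGACGTCAgcgcggagctt
Slc2a1, chr4:119108697-119108726, plus strand: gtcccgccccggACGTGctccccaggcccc
The shorter letters ACGTG or GCGTG, the core bound by hypoxia-inducible factors, were in 43.8% of all windows and in those of Slc2a1, Hk2, Ldha and Pkm. The letters TGTTTAC were in 3.65% of windows and in none of these 9 genes. These matches describe letters and were not tested as sites.

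The pyruvate kinase genes moved in opposite directions. Pklr (chr3:89136122-89146815), the liver and red cell form, fell from 681, 248, 602, 800.4 and 199 in no BDL to 171, 75.9, 60.1 and 169 in miR-Ctrl BDL, with no overlap. The log2 fold change was −2.09 (SE 0.50, adjusted p = 0.0101). Pkm (chr9:59656576-59679372), the form of muscle and most non-hepatocytes, stood at 12.3, 9.96, 11.9, 9.55 and 21.8 in no BDL and at 46.5, 77.7, 66.7 and 66.3 in miR-Ctrl BDL. Each miR-Ctrl BDL mouse exceeded every no BDL mouse, a separation seen upward in 14.8% of all genes. Pkm rose 4.90-fold (log2 fold change 2.29, SE 0.25, adjusted p = 0.000258), the smallest adjusted p of the 9 genes.

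Pkm stood at 28.9, 33.6, 53.9 and 63.5 with the inhibitor, all above no BDL as for 10.1% of all genes, and rose 3.36-fold against no BDL (log2 fold change 1.75, SE 0.30, adjusted p = 0.00455). It kept its call when any single mouse was left out, in both comparisons. Pklr was at 311, 35.2, 80.2 and 98.6, of which mouse 1 lay within the no BDL range. Its log2 fold change of −1.97 (SE 0.65) had an adjusted p of 0.0548, and 0.0373 without no BDL mouse 5. Without anti-miR-873-5p BDL mouse 1 it was −2.86 (adjusted p = 0.00854). Of 50-base windows of Pkm transcripts, 25.8% also occur in other genes, so reads of that gene may have been divided differently by the authors' counting, and the counts do not separate the transcript forms of Pkm.

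Hk2 (chr6:82725025-82774454), the hexokinase of muscle and of dividing cells, was rare in liver. Its raw counts were 8 to 35 per mouse without BDL and 62 to 138 in miR-Ctrl BDL. Normalised counts were 0.773, 1.19, 0.562, 0.609 and 2.29 in no BDL, and 3.15, 5.34, 5.74 and 6.90 in miR-Ctrl BDL, without overlap. Hk2 rose 4.82-fold (log2 fold change 2.27, SE 0.41, adjusted p = 0.00261). For anti-miR-873-5p BDL, at 1.98, 0.884, 5.00 and 6.55, only mice 3 and 4 exceeded the no BDL range. The log2 fold change there was 1.70 (SE 0.59, adjusted p = 0.0664), and 2.00 without mouse 2 (adjusted p = 0.0156).

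Ldha (chr7:46842274-46855627), which turns pyruvate into lactate, did not pass the test. It stood at 759.9, 647, 491, 639.6 and 1005 in no BDL and at 625, 548, 1509 and 689 in miR-Ctrl BDL, where mouse 3 alone lay above the no BDL range. In anti-miR-873-5p BDL it was 619, 1069.8, 672 and 711. The log2 fold changes were 0.25 (SE 0.32, adjusted p = 0.581) and 0.09 (SE 0.25, adjusted p = 0.828), and the first was −0.20 without miR-Ctrl BDL mouse 3. With library size alone both passed the test, at 1.02 and 0.91.

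The glucose transporters showed a rise of the ubiquitous form. Slc2a1 (chr4:119108745-119137330) was at 6.96, 9.01, 10.9, 6.57 and 12.97 in no BDL and at 15.9, 18.0, 36.8 and 14.6 in miR-Ctrl BDL, all above. It rose 2.29-fold (log2 fold change 1.20, SE 0.30, adjusted p = 0.0130), and 0.79 on the log2 scale without miR-Ctrl BDL mouse 3, where the call held. With the inhibitor the BDL mice had 9.32, 25.7, 16.5 and 12.7, overlapping no BDL, with a log2 fold change of 0.76 (SE 0.30, adjusted p = 0.0964), and of 0.42 without mouse 2 (adjusted p = 0.228).

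Slc2a2 (chr3:28697903-28728361), the hepatocyte transporter, was at 220.4, 209, 305, 288 and 65.6 in no BDL and at 110.4, 89.6, 122 and 112 in miR-Ctrl BDL. Of the 5 no BDL mice, 4 lay above all miR-Ctrl mice and mouse 5 lay under them. The log2 fold change of −1.002 (SE 0.36) had an adjusted p of 0.0544, which became 0.000708 without that mouse. In anti-miR-873-5p BDL, at 165, 112, 153 and 118, it was −0.69 (SE 0.37, adjusted p = 0.208; 0.10 with library size alone), and −0.92 with an adjusted p of 0.0112 without no BDL mouse 5.

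**Figure D2:**
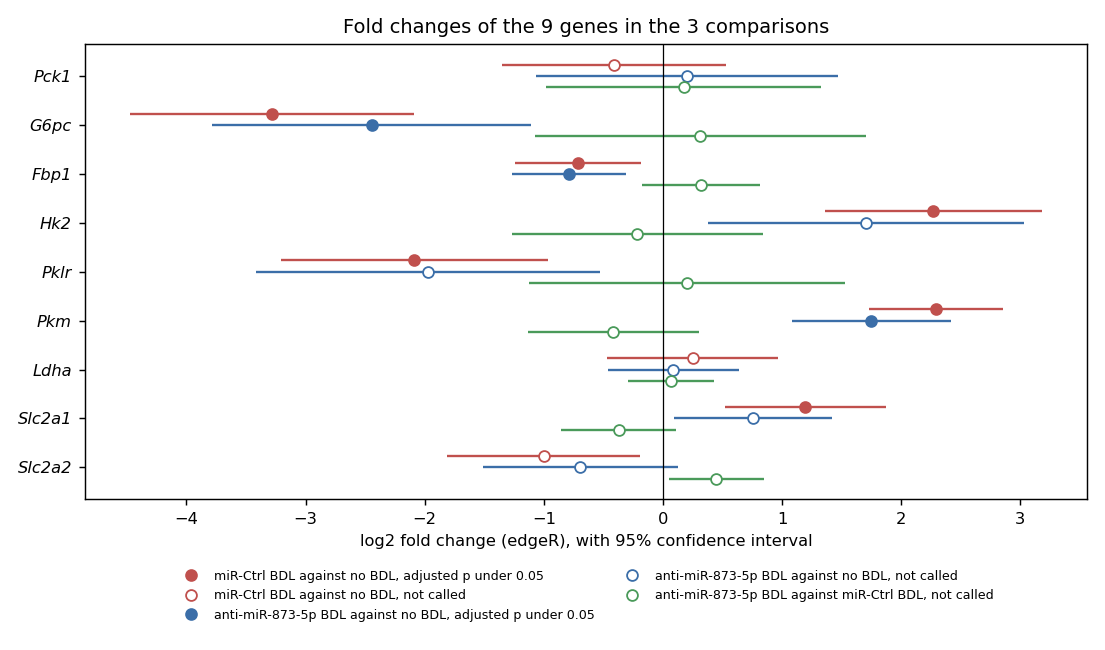
Log2 fold change (x axis, edgeR, bars are 95% confidence intervals) of each of the 9 genes (y axis) in the 3 comparisons, with filled points where the adjusted p was under 0.05. In miR-Ctrl BDL against no BDL 6 genes were called, from −3.28 for G6pc to 2.29 for Pkm. In BDL against BDL none was called, and Fbp1 changes sign against no BDL when library size alone scales the counts.

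Between anti-miR-873-5p BDL and no BDL, 3 of the 9 genes were called: Pkm rose, and G6pc and Fbp1 fell (Fbp1 not with library size alone). That is 33.3% of the members, where 21.5% of all genes were called (13.1% higher, 8.44% lower). The 2 comparisons share their 5 no BDL mice and are not independent of each other. Hk2, Pklr and Slc2a1 were called in miR-Ctrl BDL and not in anti-miR-873-5p BDL, which does not show that the BDL groups differ. That difference was tested directly.

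Inhibition of miR-873-5p was compared with the control oligonucleotide in BDL livers, 3 mice against 3. None of the 9 genes was called, and 0 of 13746 genes were called at all by edgeR (0%), with 863 genes (6.28%) at an unadjusted p under 0.05. DESeq2's Wald test called 30 genes, none of these 9. Slc2a2 came nearest, at 234, 214 and 166 with the inhibitor (mice 1, 3 and 4) and at 159, 129 and 162 in miR-Ctrl BDL mice 1, 2 and 4. The groups did not overlap, as was so upward for 6.59% and downward for 4.77% of all genes, and the log2 fold change was 0.45 (95% confidence interval 0.05 to 0.85, unadjusted p = 0.0328, adjusted p = 0.763). Fbp1 was likewise higher in each anti-miR-873-5p mouse (865, 556 and 538, against 536, 495 and 536), with a log2 fold change of 0.32 (95% confidence interval −0.17 to 0.82, adjusted p = 0.811). Leaving out each mouse in turn moved that value between 0.064 and 0.44.

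The widest intervals were those of the genes that varied most between mice. For G6pc, at 218, 94.5 and 43.1 against 104, 132 and 50.1, the log2 fold change of 0.31 had an interval of −1.08 to 1.70. Pklr, at 441, 112 and 138 against 247, 109 and 244, had one of −1.12 to 1.53 around 0.20. Pck1, at 815, 1979.9 and 699.7 against 738, 1631 and 726, had one of −0.98 to 1.33. Differences of up to these sizes thus lay within the intervals. The narrowest was that of Ldha, −0.29 to 0.43 around 0.07. Pkm, Slc2a1 and Hk2 had log2 fold changes of −0.42, −0.37 and −0.22, each with an interval that included 0. With all 4 mice of each group, from the genes with the same counts in the other tables, the log2 fold changes were 0.86 for G6pc, 0.63 for Pck1, −0.58 for Hk2 and −0.55 for Pkm, and again none was called. Fbp1 was not in that fit, since its counts differed by up to 1 read between tables.

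The mature miRNA that the inhibitor was made against is mmu-miR-873a-5p in RefSeq (chr4:36668556-36668576, minus strand, GRCm38.p6). Its seed, bases 2 to 8, is in capitals, and the complementary heptamer GTTCCTG was looked for in the longest annotated 3′ UTR of each gene (GENCODE M21), with the single match in capitals.
mmu-miR-873a-5p: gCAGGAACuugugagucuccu
Hk2, 3′ UTR: gttcacaagttGTTCCTGctggtcacttc
The heptamer was in the 3′ UTR of Hk2 (first base at position 194 of 2285) and of none of the other 8 genes, against 14.1% of 20996 genes with a 3′ UTR. Only this exact heptamer in 1 3′ UTR per gene was searched, so other kinds of match were not covered. Gnmt, which is not one of the genes described here, had no match in its 3′ UTR of 136 bases. The paper reports Gnmt as a direct target of the miRNA. The search thus missed that target, and whether Hk2 or the other genes are targets was not tested. Hk2 read 2.81, 6.98 and 9.18 in the inhibitor group and 4.56, 7.66 and 9.95 in the control group, which overlapped.

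Ratios between partner genes do not depend on how libraries are scaled. In raw counts, Pkm was 1.81%, 4.02%, 1.97%, 1.19% and 10.98% of Pklr in no BDL mice 1 to 5. It was 27.1%, 102%, 111% and 39.2% in miR-Ctrl BDL and 9.29%, 95.3%, 67.2% and 64.4% in anti-miR-873-5p BDL. All miR-Ctrl BDL mice were above all no BDL mice, while anti-miR-873-5p BDL mouse 1 lay under no BDL mouse 5. The mean log2 ratio was −5.13 ± 1.26 (SD, n = 5) in no BDL, −0.76 ± 1.01 (SD, n = 4) in miR-Ctrl BDL and −1.18 ± 1.52 (SD, n = 4) in anti-miR-873-5p BDL. Counts were not divided by length here, so a ratio compares mice, not the levels of the genes.

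The transporters gave a like picture with more overlap. Slc2a1 to Slc2a2 had a mean log2 ratio of −4.42 ± 1.21 (SD, n = 5) in no BDL, −2.44 ± 0.54 (SD, n = 4) in miR-Ctrl BDL and −3.18 ± 0.82 (SD, n = 4) in anti-miR-873-5p BDL, with no BDL mouse 5 at −2.34 among the BDL mice. Pck1 to Pklr, a gene of glucose production against one of glycolysis, spread widely after BDL (3.04 ± 1.76 in miR-Ctrl BDL, SD, n = 4) and overlapped no BDL (1.64 ± 0.71, SD, n = 5).

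**Figure D3:**
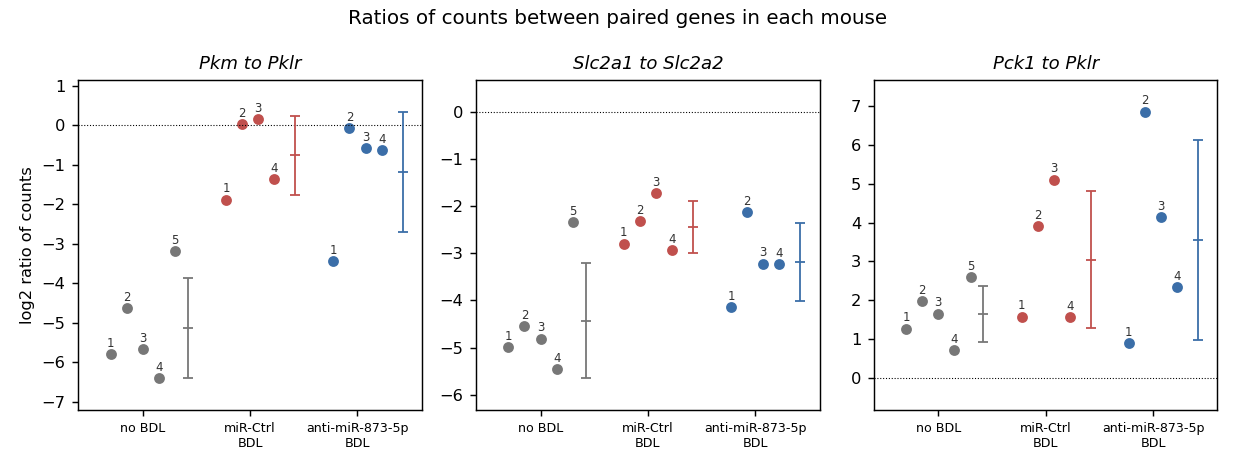
Log2 ratio of raw counts (y axis) of 3 gene pairs in each mouse, by group (x axis), with mouse numbers beside the points and mean ± SD as bars. Pkm to Pklr separates the 4 miR-Ctrl BDL mice from the 5 no BDL mice, and the other pairs overlap between groups.

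The wider pathway was read from 9 lists that held 110 further genes. In miR-Ctrl BDL against no BDL, 21 of 102 tested genes rose and 27 fell, 47.1% against 35.7% of all genes, with a median log2 fold change of −0.10 against −0.01. Between anti-miR-873-5p BDL and no BDL, 12 rose and 11 fell, 22.5% against 21.5%. In the comparison of the BDL groups, edgeR called 0 of 103. DESeq2's Wald test called 3, against 0.218% of all genes. Among them were the fasting-induced Cpt1a, of fatty acid oxidation, which was higher with the inhibitor (log2 fold change 0.62), and Sik1, which was lower (−0.69), both named after their values were seen. Each had an adjusted p of 0.757 in edgeR. Leaving out anti-miR-873-5p BDL mouse 2 raised the count of that group against no BDL from 23 to 39, and leaving out mouse 3 or mouse 4 lowered it to 11 or 14. The share called of all genes moved with it, from 21.5% to 31.7% without mouse 2 and to 9.46% without mouse 3.

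Glucose phosphorylation and the regulated steps of glycolysis had 6 of 12 tested genes higher and 3 lower in miR-Ctrl BDL (median log2 fold change 0.67), or 75% called against 35.7% of all genes (19.1% higher, 16.6% lower). Hkdc1, a hexokinase domain protein, rose most (2.51, adjusted p = 0.000309), Hk3, the hexokinase of myeloid cells, rose by 1.87 (adjusted p = 0.0167), and Hk1, Pfkp and Pfkl rose by 0.97, 1.14 and 0.52. Pfkfb1, the liver regulator of fructose bisphosphate, fell by 0.93 on the log2 scale (adjusted p = 0.0275) and Gckr, a regulatory protein of the liver, fell by 0.53 (adjusted p = 0.0213; 0.27 higher with library size alone). In anti-miR-873-5p BDL, 3 of 12 rose, among them Hkdc1 (2.18, adjusted p = 0.00159) and Pfkp (1.02, adjusted p = 0.0114), and 0 fell. That share, 25%, was near the 21.5% of all genes called there.

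Of the remaining glucose production genes, 1 of 8 tested rose and 3 fell in miR-Ctrl BDL (50% called, against 35.7% of all genes), and 1 rose and 1 fell with the inhibitor (25% against 21.5%). Pck2, the mitochondrial counterpart of Pck1, rose 3.32-fold (mean 3.19 ± 0.73 to 10.6 ± 2.9, adjusted p = 0.000558) and, in anti-miR-873-5p BDL, 3.55-fold (adjusted p = 0.00115). Slc37a4, which carries glucose 6-phosphate to the enzyme encoded by G6pc, fell 2.40-fold in miR-Ctrl BDL (adjusted p = 0.00390). Mdh1, of the malate shuttle, fell in both (log2 fold change −0.83 and −0.84). Pcx, pyruvate carboxylase, was at 0.11 and 0.06 and did not pass the test, and was at −0.31 without miR-Ctrl BDL mouse 3 (adjusted p = 0.0626) and −0.12 without anti-miR-873-5p BDL mouse 2 (adjusted p = 0.528).

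The 11 tested genes of the reversible steps, shared by both pathways, gave 1 higher and 1 lower in miR-Ctrl BDL (median 0.01) and none in anti-miR-873-5p BDL, which is 18.2% and 0% called against 35.7% and 21.5% of all genes. Aldoa, the aldolase of muscle and most tissues, rose by 0.91 on the log2 scale (adjusted p = 0.00814), and by 0.65 without miR-Ctrl BDL mouse 3 (adjusted p = 0.00724). Gapdh, often taken as a reference gene, was at −0.01 (SE 0.24), and 24.7% of its 50-base windows also occur in other genes. It was at −0.30 without miR-Ctrl BDL mouse 3 and at 0.76 with library size alone.

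Pyruvate and lactate handling had 3 of 14 higher and 6 lower in miR-Ctrl BDL, where the inhibitor group had 2 and 4. The shares called were 64.3% and 42.9%, against 35.7% and 21.5% of all genes. Slc16a3, the lactate exporter MCT4, rose 13.9-fold and 5.06-fold from a low level (0.349 ± 0.253 to 5.01 ± 3.59 in miR-Ctrl BDL, with a log2 fold change of 3.796, and of 3.18 without mouse 3). Pdk1, a kinase that inactivates pyruvate dehydrogenase, fell 3.57-fold and 3.10-fold, while Pdk4, another such kinase that is induced by fasting, rose in miR-Ctrl BDL (log2 fold change 2.95, SE 0.88, adjusted p = 0.0262) and lost that call without miR-Ctrl BDL mouse 3 (1.12, adjusted p = 0.0982) or without no BDL mouse 3 or 4. Glucose transporters other than the 2 members had 2 of 6 higher and 3 lower in miR-Ctrl BDL, from Slc2a6 (2.96) to the fructose transporter Slc2a5 (−2.18), and none called in anti-miR-873-5p BDL (83.3% and 0%, beside the same shares of all genes).

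Among 15 glycogen genes, 4 rose, 4 fell and 7 were not called in miR-Ctrl BDL (53.3% called, against 35.7% of all genes). Pygb, the brain-type phosphorylase, rose 4.54-fold (adjusted p = 0.00265), whereas Pygl, the liver type, fell 2.36-fold (adjusted p = 0.00952) and Gys2, liver glycogen synthase, fell 3.62-fold (adjusted p = 0.0107). For anti-miR-873-5p BDL, 5 of 15 rose and 2 fell (46.7% against 21.5%), with Pygb at 2.03 and Gys2 at −1.54, and Pygl at −1.21 did not pass the test (adjusted p = 0.0541).

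Among regulators, 1 of 19 rose and 6 fell in miR-Ctrl BDL, and 0 rose and 3 fell in anti-miR-873-5p BDL, or 36.8% and 15.8% called against 35.7% and 21.5% of all genes. Mlxipl, the carbohydrate response factor known to drive Pklr, fell 3.39-fold (adjusted p = 0.00105) and 2.85-fold (adjusted p = 0.00853). Sik1, a kinase that restrains cyclic AMP signalling, rose in miR-Ctrl BDL (log2 fold change 2.22, adjusted p = 0.0170), and by 1.08 with both mice left out. DESeq2's Wald test called neither Sik1 nor Pdk4 in miR-Ctrl BDL against no BDL. Ppargc1a, a coactivator of glucose production, was at −0.09 and 0.53 and was not called (0.04 without anti-miR-873-5p BDL mouse 2). Of 12 tested targets of hypoxia-inducible factors outside glycolysis, 4 rose and 2 fell in miR-Ctrl BDL, from Adm (2.03, adjusted p = 0.0114) to Pdk1, and 1 rose and 2 fell in anti-miR-873-5p BDL (50% and 25% called). Of 10 genes induced by fasting, Pdk4 alone was called in miR-Ctrl BDL (10%) and none in anti-miR-873-5p BDL (0%).

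**Figure D4:**
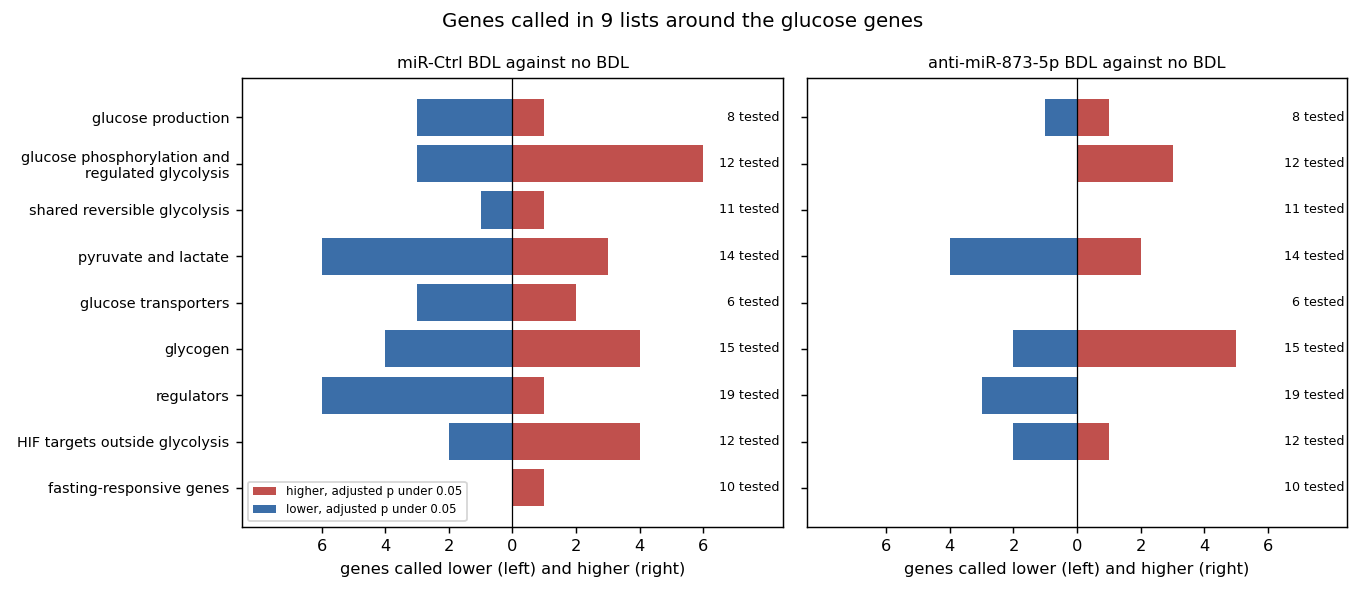
Number of genes called lower (left, blue) and higher (right, red) in each of 9 lists (y axis) in miR-Ctrl BDL and in anti-miR-873-5p BDL, both against no BDL, at an adjusted p under 0.05 with trimmed-mean scaling. The list of regulated glycolysis has the most genes called higher in miR-Ctrl BDL (6 of 12), and with library size alone no gene of that list was called lower.

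The mice that stood apart did so in several of these genes at once. Pdk4 was 161 in miR-Ctrl BDL mouse 3 and 55.0 in anti-miR-873-5p BDL mouse 2, and 8.11 to 21.5 in the other 6 BDL mice. Pygl was lowest in the same mice, at 95.4 and 79.1, and Pcx was highest, at 828 and 625. The same mice had the highest Pck1 and Slc2a1 and the lowest Pklr of their groups. Food intake and the time of day of sampling are not given in the sources used here and their part was not tested.

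**Figure D5:**
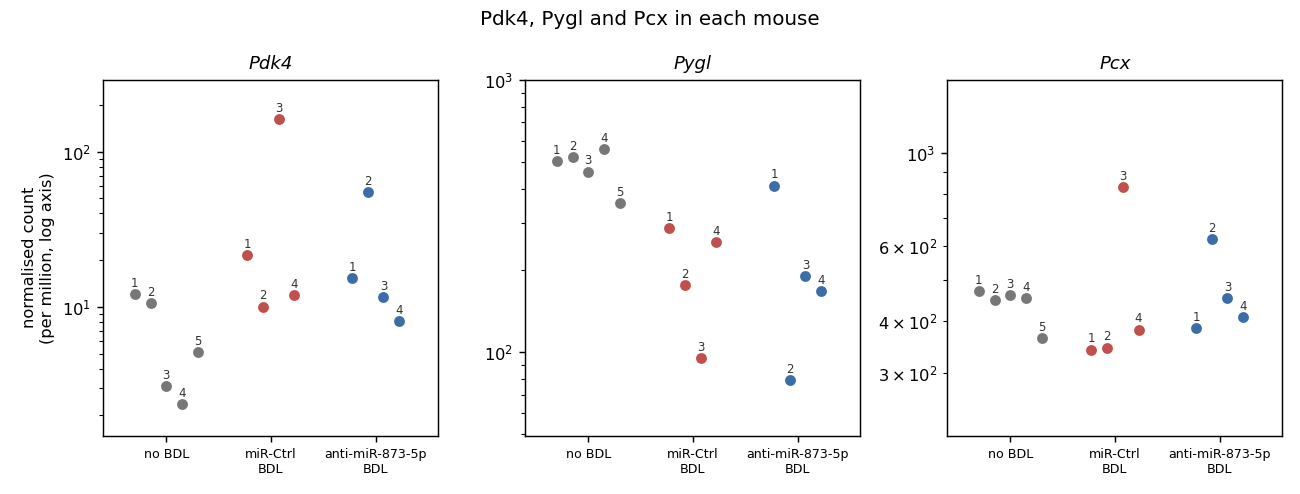
Normalised counts (y axis, CPM, log axis) of Pdk4, Pygl and Pcx in each mouse by group (x axis), with mouse numbers beside the points, and anti-miR-873-5p BDL from a separately scaled table. MiR-Ctrl BDL mouse 3 and anti-miR-873-5p BDL mouse 2 have the highest Pdk4 (161 and 55.0) and the lowest Pygl (95.4 and 79.1).

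Levels of the 9 genes were compared with each other only per kilobase of exon. In no BDL livers the order of the 9 genes was Pck1 (528 ± 137 normalised counts per kilobase, SD, n = 5), Fbp1 (496 ± 77), Ldha (374 ± 101), G6pc (234 ± 135), Pklr (166 ± 88), Slc2a2 (39.1 ± 17.0), Pkm (5.04 ± 1.93), Slc2a1 (2.85 ± 0.83) and Hk2 (0.193 ± 0.128). Pck1 and Fbp1 lay within 1 SD of each other, as did G6pc and Pklr, whereas Ldha lay more than 1 SD under both Pck1 and Fbp1, with mice that overlapped theirs. In miR-Ctrl BDL, G6pc (24.1 ± 11.99, SD, n = 4), Pkm (24.7 ± 5.0), Pklr (39.1 ± 19.5) and Slc2a2 (19.5 ± 2.5) lay close to each other.

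Within groups, each of the 9 genes was set against all others by the correlation of deviations from the group mean over the 13 mice, a description in which mice that stand apart weigh heavily. The nearest to Pck1 were Klf9, a target of glucocorticoid receptor (r = 0.97), and Nr1i2, the xenobiotic receptor PXR (r = 0.96). For Pklr they were Khk, which phosphorylates fructose (r = 0.97), and Cyb5r3 (r = 0.93). For Slc2a2 they were Fnip2 and the clock gene Nr1d2 (r = 0.97 and 0.94), for Slc2a1 Ier3 and Scaf1 (0.96 and 0.94), for Ldha Slc37a3 and Rbm15 (0.96 and 0.96), and for Hk2 Slc13a3 and Tmed3 (0.96 and 0.94). For G6pc they were Abtb1 and Mycl (0.88 and 0.87). For Fbp1 they were Mrpl39 and Fbxl5 (0.93 and 0.93), and for Pkm Mustn1 and Rgs2 (0.92 and 0.92). All of these neighbours were picked as the highest r among 12204 genes (12205 for Fbp1). How high the highest r of so many genes would run by chance was not tested. Shared regulation therefore cannot be read from these pairs. Among the 9 genes themselves, Slc2a1 and Pklr had the lowest r (−0.83), followed by Hk2 and G6pc (−0.80). Hk2 and Pkm had the highest (0.80), followed by Pck1 and Slc2a1 (0.78).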

How the data were processed

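Liver RNA of 13 mice was analysed from the deposited tables of reads per Entrez gene, 1 table per comparison. The authors extracted RNA with TRIzol, prepared TruSeq RNA v2 libraries from 700 ng, sequenced 50-nt single reads and mapped them to mm10 with TopHat. The submitters' processing notes also name CASAVA 1.8.2, FastQC, Trim Galore and DESeq2. The deposited counts are whole numbers without normalization. The program that counted reads, its annotation and its use of strand are not given in the sources used here. All value columns were mapped to mice by their labels, with 0 left out. The tables gave 22246 of 23019 shared genes the same counts.

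Genes kept by edgeR's filterByExpr (minimum count 10) were scaled by trimmed means of M-values and tested by the quasi-likelihood test of edgeR 4.0.16 (R 4.3.3, limma 3.58.1), on the mice of each table, with Benjamini-Hochberg adjustment over all genes tested. The scripts were tested on simulated data. The alternatives were library size alone, DESeq2 size factors, DESeq2 1.42.0 (Wald test), other filters, joint fits of all groups, mouse number as a block, an adjusted p of 0.1 and leaving out each mouse. Normalised counts are CPM after scaling. Each table was scaled separately and tests stayed within a table. Symbols, coordinates and sequences come from RefSeq (GRCm38.p6), exon lengths and 3′ UTRs from GENCODE M21. The genes and lists were chosen with earlier results of these data known. Genes were named by rule: the 9 genes, 16 genes of the same pathways (some not reported here), the called gene with the highest and with the lowest fold change of each list, and the 2 genes closest to each of the 9 in correlation. Means, folds and p-values carry the spread between mice, each of which gave 1 library.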

Additional observations from a re-analysis of the deposited data

Results flagged for a closer look

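Among the 9 genes in the 3 groups, 27 sets of values were examined for a single mouse far from the rest. In 4 of them such a mouse was found. Chance would give about 1 in 20 if the sets were independent. The sets share their mice, so the 4 cannot be weighed against that rate. MiR-Ctrl BDL mouse 3 stood apart in 3 of the 4. Its Fbp1 was 701 normalised counts against 345 to 372 in the other 3 mice, its Ldha was 1509 against 548 to 689, and its Slc2a1 was 36.8 against 14.6 to 18.0. Without BDL, mouse 5 had a Pkm of 21.8 against 9.55 to 12.3 in the other 4 mice.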

How the results depend on the processing

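Of the 9 genes, Hk2, Pkm, Slc2a1, G6pc and Pklr kept their direction against no BDL under every alternative run. With library size alone, Pck1 (0.31) and Fbp1 (0.040) turned in miR-Ctrl BDL against no BDL, and Fbp1 (0.015) and Slc2a2 (0.10) in the comparison of anti-miR-873-5p BDL with no BDL, where 5 of the 9 genes and 62 of the wider lists were then called in place of 3 and 23, while the share of all genes called went from 21.5% to 77.6%. In that comparison the 9 genes gave 5 calls with the DESeq2 Wald test (27.6% of all genes called), 6 at an adjusted p of 0.1 (31.1%) and 6 with both mice that stood apart left out (35.8%, a choice made after seeing the data), when the wider lists gave 54 calls, Pck1 turned to −0.85 and, in miR-Ctrl BDL, Ldha to −0.043. Leaving out each mouse in turn, its calls ranged from 1 (without anti-miR-873-5p BDL mouse 3) to 6 (without no BDL mouse 5) and those of the wider lists from 11 to 39, with 9.46% to 31.7% of all genes called, Pck1 ranged from −0.80 to 0.50 and Ldha from −0.13 to 0.25, and Ldha in miR-Ctrl BDL from −0.20 to 0.41. The cause was not tested.

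In BDL against BDL no gene of the 9 was called under any alternative run for it (Fbp1 was not in the joint fit or the fit with all 4 mice, since its counts differ between tables), and the wider lists gave 3 calls with the DESeq2 Wald test. Ldha turned to −0.17 with all groups in 1 fit and to −0.16 with all 4 mice of each group. Leaving out each mouse in turn, Pck1 ranged from −0.45 to 0.67, G6pc from −0.48 to 0.71, Pklr from −0.68 to 0.53, Hk2 from −0.59 to 0.13 and Ldha from −0.018 to 0.15. The labels do not say that mouse numbers pair the samples. Between mice of the same number, the correlation of deviations from the group mean was −0.198 to 0.074 in the comparisons with no BDL. In BDL against BDL it was 0.349 for mouse 1 and −0.0157 for mouse 4. With mouse number as a replicate block, 7, 5 and 0 of the 9 genes were called in the 3 comparisons, where the comparisons with no BDL called 31.1% and 16.7% of all genes. The call of G6pc with the inhibitor was lost, Pck1 turned to −0.43 between anti-miR-873-5p BDL and no BDL, and Ldha to −0.019 in BDL against BDL. Low counts limit Hk2, and 3 mice a group limit BDL against BDL.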

Other observations

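Markers of further cell types were read in the same libraries. Of 6 endothelial markers, 0 were called in miR-Ctrl BDL, against 35.7% of all genes. In anti-miR-873-5p BDL 1, Kdr, fell (log2 fold change −1.27), or 16.7% against 21.5% of all genes. Both comparisons were with no BDL. Alas2, of red cell precursors, fell in both (log2 fold change −2.82 and −2.35). A single acinar gene of the pancreas passed the filter and was not called. No T or NK cell gene passed it in the comparisons with no BDL.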
